A study of Mus musculus with 12 samples.

Results

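Metallothioneins and proteins that carry zinc across cell membranes were followed in the mouse aorta through 6 genes, Mt1, Mt2, Mtf1, Slc39a14, Slc39a8 and Slc30a1, out of 32245 gene symbols in the 4 gene expression matrices. The list was chosen on measured values of these same libraries, so the levels and ratios of its members are given as a description and no test was made on them. All 6 genes had UMIs in all 4 libraries.

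Aortas of mice described as male C57BL/6J ApoE-/- were analyzed using single-cell sequencing with 10x Genomics 5′ chemistry. Such mice carry a disrupted gene for apolipoprotein E and develop atherosclerosis (AS) on a fatty diet. The mice were 8 weeks old at the start and were followed for 24 weeks, and 6 aortas were pooled into 1 gene expression library per group. The library labelled Healthy came from mice on a normal diet that received saline. The AS library came from mice on a high-fat diet with saline for 24 weeks, the MTZ-treated library from mice on the same diet that received methazolamide (MTZ), an inhibitor of carbonic anhydrases, at 25 mg/kg in the last 12 weeks, and the MTZ-preventive library from mice on that diet that received the same dose for all 24 weeks. The sample labels spell the drug methoxazolamide. No group has a replicate library, so no difference between groups has an error over mice, and the intervals in parentheses are 95% limits of counting error only.

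Metallothioneins are small cysteine-rich proteins that bind zinc and copper in the cytosol. Their genes are switched on by zinc through Mtf1, a zinc-sensing transcription factor that binds metal response elements, and also by glucocorticoids and inflammatory signals. Slc39a14 and Slc39a8 bring zinc and other divalent metals into the cell, Slc39a14 being an acute phase gene in the liver, whereas Slc30a1 exports zinc across the plasma membrane and is itself a target of Mtf1.

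Mt1 (ENSMUSG00000031765) and Mt2 (ENSMUSG00000031762) are neighbors on chromosome 8. In RefSeq's annotation of GRCm38.p6, the build that corresponds to the mm10 of the submitters' processing notes, Mt2 lies at chr8:94172618-94173567 and Mt1 at chr8:94178883-94180327, with 5315 bases and 0 genes between them. Mt3 lies 18469 bases before Mt2. The other members lie apart, Mtf1 (ENSMUSG00000028890) at chr4:124802549-124849800, Slc39a14 (ENSMUSG00000022094) at chr14:70303467-70351452, Slc39a8 (ENSMUSG00000053897) at chr3:135816882-135888572 and Slc30a1 (ENSMUSG00000037434) at chr1:191906697-191913248. Mtf1, Slc39a8 and Slc30a1 each overlap 1 other annotated gene (1110065P20Rik, 4933401H06Rik and 1700034H15Rik), and reads in the overlap could belong to either gene.

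The promoters of the genes that Mtf1 is known to act on are shown because they carry the letters of the metal response element. The core was searched as TGCACNC and TGCGCNC on both strands, in the RefSeq windows of 250 bases before and 50 bases after the annotated start, and the capitals mark each core. Mt2 held 4 cores, at bases 223 to 217, 128 to 122 and 50 to 44 before the start and at bases 5 to 11 after it, and Mt1 held 3, at bases 23 to 17 before the start and at bases 3 to 9 and 21 to 27 after it. Slc30a1 held 2, at bases 43 to 37 before and 31 to 37 after the start, both on the opposite strand. All sequences are RefSeq GRCm38.p6, plus strand, which is the strand of the genes. The start of the promoter table lies inside the annotated extent of Mt1 (base 94179089) and of Slc30a1 (base 191906781), so for these genes the stretches before the start also lie within the annotated gene, and only 30 bases around each core are shown. Positions and counts of cores hold for the start of that table only, and whether transcription starts there was not tested.
Mt2, chr8:94172368-94172617, ending at the base before the start: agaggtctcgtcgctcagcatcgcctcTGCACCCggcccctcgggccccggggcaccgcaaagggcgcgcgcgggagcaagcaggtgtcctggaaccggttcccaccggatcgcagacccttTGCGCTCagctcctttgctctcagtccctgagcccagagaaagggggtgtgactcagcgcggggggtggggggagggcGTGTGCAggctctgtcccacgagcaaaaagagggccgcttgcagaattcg
Mt1, chr8:94179055-94179084, before the start in the promoter table: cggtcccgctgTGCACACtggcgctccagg
Mt1, chr8:94179089-94179118, the first 30 bases from the start: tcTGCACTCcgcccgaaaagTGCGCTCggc
Slc30a1, chr1:191906727-191906756, before the start in the promoter table: acgggggttccGAGTGCAaagcaaagtttt
Slc30a1, chr1:191906800-191906829, after the start: gcctccgggccGAGCGCAgtcgccgcggac

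Of 32851 promoter windows of the same length, 25.7% held at least 1 core, 7.11% at least 2, 1.97% at least 3 and 0.517% at least 4. Of the windows of Slc39a8, 1 of 2 held 1 core, and the window of Mtf1 held 0. The promoter table was not matched for Slc39a14. Such matches are a description of the letters and not of binding.

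The deposited matrices held 6908 to 23963 barcodes, of which 2160 (AS), 6796 (MTZ-treated), 11121 (Healthy) and 14186 (MTZ-preventive) were kept as cells. Median depths were 1294 to 1880 UMIs per cell, and the AS library, the shallowest, held 3668790 UMIs in kept cells against 32703490 in the MTZ-preventive library. Levels are UMIs summed over cells and scaled to 1000000 UMIs in the same cells (CPM). A count of 0 allows up to 0.818 CPM in all cells of the AS library and 0.0917 to 0.203 CPM in the other libraries. Apoe, the gene described as disrupted in these mice, stood at 664 CPM in the library labelled Healthy and at 8.19 to 12.8 CPM in the other 3. The first library thus went against its label. In all comparisons with it, a difference in genotype and the difference in diet cannot be told apart. Any 2 libraries shared 209 to 805 barcodes, 0.993% to 3.68% of either library.

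Cells were gated by 10 marker genes for each of 10 classes and called, for example, fibroblast-like where at least 3 markers of a class had a UMI and at least 2 times as many as of any other class. The classes come from these counts and are no annotation of the authors. The gates took 49.2% (AS) to 70.2% (Healthy) of kept cells, and the rest are called cells without a gate. The libraries differed in makeup, since B-like cells made up 25.7% of the library labelled Healthy, 0.602% of AS, 0.883% of MTZ-treated and 6.20% of MTZ-preventive, and adipocyte-like cells 0.0540%, 6.53%, 0.147% and 3.07%. Sums over all cells move with this makeup, so each member is also given within classes of at least 20 cells.

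Mt1 had the largest ratio between libraries of the 6 genes in sums over all cells. The library labelled Healthy had 567 (558 to 576) CPM, against 11513 (11404 to 11624) CPM in AS, 1649 (1629 to 1670) CPM in MTZ-treated and 7244 (7215 to 7273) CPM in MTZ-preventive. No intervals overlapped, and the MTZ-treated library lay nearest to the library labelled Healthy. Mt1 took 1.15% of all UMIs in AS and 0.0567% in the library labelled Healthy. By UMIs it ranked 5 of 16943 detected genes in AS and 5 of 21338 in MTZ-preventive, against 216 of 20882 in the library labelled Healthy and 102 of 19699 in MTZ-treated. A UMI marks 1 end of a transcript, so these ranks were not scaled to length.

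Mt2 followed the same order at a lower count. Its level was 94.0 CPM in the library labelled Healthy, 1488 CPM in AS, 286 CPM in MTZ-treated and 1074 CPM in MTZ-preventive. The zinc importer Slc39a14 had that order too, at 6.52 (5.59 to 7.55) CPM, 62.7 (54.9 to 71.3) CPM, 11 (9.40 to 12.9) CPM and 32.9 (31 to 35) CPM. None of these intervals overlapped between libraries for either gene. The other importer, Slc39a8, was sparse, with 1.93 (1.44 to 2.53) CPM, 3.82 (2.09 to 6.40) CPM, 1.83 (1.20 to 2.66) CPM and 4.43 (3.74 to 5.22) CPM, the AS value resting on 14 UMIs.

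The exporter and the transcription factor had similar levels in most libraries. Slc30a1 had in the library labelled Healthy 19.3 (17.7 to 21.0) CPM, against 20.2 (15.8 to 25.3) CPM in AS, 11.2 (9.52 to 13.0) CPM in MTZ-treated and 20.8 (19.3 to 22.4) CPM in MTZ-preventive. Only the MTZ-treated value lay below the intervals of the other 3. Mtf1 had 15.6 (14.1 to 17.2) CPM, 21.0 (16.6 to 26.2) CPM, 17.7 (15.6 to 20) CPM and 16.8 (15.5 to 18.3) CPM, and its intervals overlapped between all libraries. The ratio of AS over the library labelled Healthy for Mtf1 was 1.35 (1.04 to 1.72) over all cells, an interval that did not hold 1. The same ratio was taken in fibroblast-like, smooth muscle-like and endothelial-like cells. For Mtf1 it ran from 0.567 (0.217 to 1.26) in endothelial-like to 1.86 (0.768 to 4.07) in fibroblast-like cells. For Slc30a1 it ran from 0.523 (0.161 to 1.33) in endothelial-like to 1.77 (0.667 to 4.01) in smooth muscle-like cells. All these class intervals held 1. Macrophage-like cells, with at most 2 UMIs of either gene in these libraries, were left out.

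Within cell classes the same order of libraries was found in stromal and endothelial cells. In fibroblast-like cells Mt1 stood at 1461 CPM in the library labelled Healthy (1306 cells), 12461 CPM in AS (280 cells), 2332 CPM in MTZ-treated (1367 cells) and 9712 CPM in MTZ-preventive (2610 cells). In smooth muscle-like cells, the contractile cells of the media, it stood at 830 CPM, 10964.5 CPM, 1748 CPM and 3922 CPM. In endothelial-like cells it stood at 419 CPM, 5555 CPM, 816 CPM and 2717 CPM. The AS library was highest and the library labelled Healthy lowest in each of these classes, with no overlap of intervals. Ordered by level, neighboring classes had intervals apart in AS and MTZ-preventive, while smooth muscle-like and macrophage-like cells overlapped in the other 2 libraries, as did B-like and T-like cells.

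**Figure D1:**
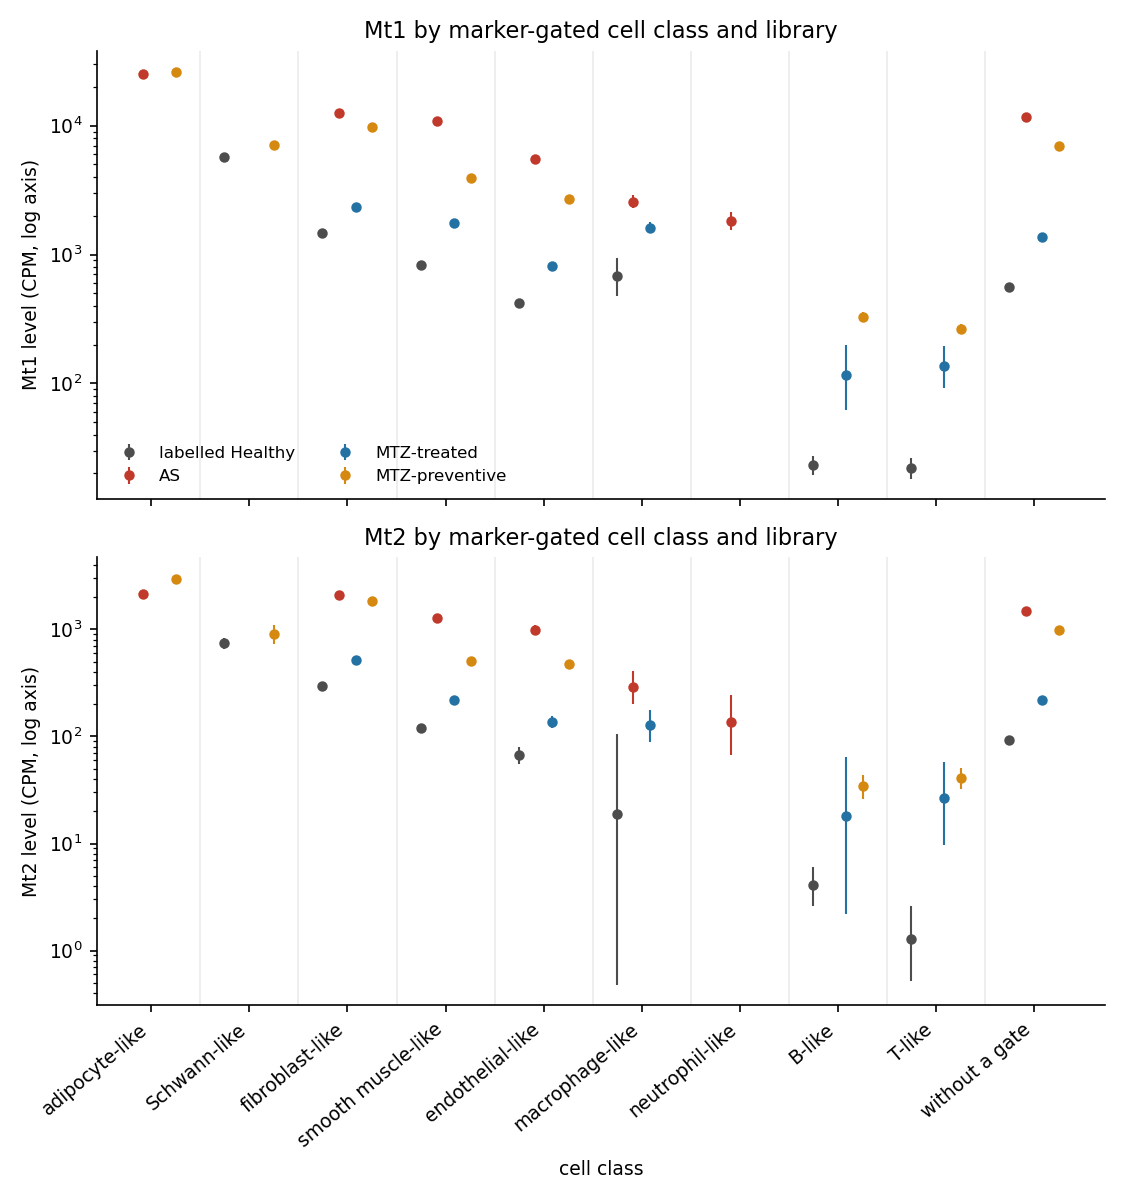
Levels of Mt1 (upper panel) and Mt2 (lower panel) in CPM on a log axis, for each cell class with at least 20 cells and each library, with bars for 95% Poisson limits of counting error. AS lies above the other libraries in fibroblast-like, smooth muscle-like and endothelial-like cells, adipocyte-like cells of AS and MTZ-preventive lie at the top of the Mt1 panel, at 25269 and 26329.5 CPM, and B-like and T-like cells lie at the bottom.

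Adipocyte-like cells, from the fat around the vessel, had the highest Mt1 level of all classes with at least 20 cells. Mt1 stood there at 25269 (24715 to 25833) CPM in AS (141 cells) and 26329.5 (26117 to 26543) CPM in MTZ-preventive (436 cells), and Mt2 at 2146 CPM and 2986 CPM. These cells carried 18.7% of the Mt1 UMIs of AS and 24.8% of those of MTZ-preventive, against 1.33% in the library labelled Healthy and 1.52% in MTZ-treated, which held 6 and 10 such cells. Schwann-like cells, the glia of the nerves in the wall, were the highest class of the library labelled Healthy, with 5700 (5480 to 5925) CPM in 163 cells that carried 16.6% of its Mt1 UMIs, and had 7081 CPM in 69 cells of MTZ-preventive. They were too few in AS, with 2 cells, for a comparison.

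Mt1 differed among immune classes. Macrophage-like cells of the library labelled Healthy (21 cells) had 678 (475 to 939) CPM, against 2572 (2288 to 2880) CPM in AS (46 cells) and 1617 (1470 to 1776) CPM in MTZ-treated (86 cells). Their level differed between these libraries beyond counting error, but few cells stand behind it. It lay above that of endothelial-like cells in the library labelled Healthy and MTZ-treated and below it in AS. Neutrophil-like cells of AS had 1820 (1539 to 2138) CPM in 32 cells. The AS levels of macrophage-like and neutrophil-like cells lay below that of 25 AS barcodes with a B cell receptor contig. These barcodes, B-like or without a gate, had 3493 (2942 to 4117) CPM. The levels of macrophage-like and neutrophil-like cells lay above that of the 13 B-like cells of AS, 482 CPM. Those B-like cells were too few for a class value. How much of the level in macrophage-like and neutrophil-like cells was free RNA was not tested.

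B-like and T-like cells had the lowest Mt1 in each library where they could be read. B-like cells of the library labelled Healthy had 23.0 (19.3 to 27.3) CPM, against 117 (62.2 to 200) CPM in MTZ-treated and 329 (303 to 357) CPM in MTZ-preventive. T-like cells had 21.9 (18.2 to 26.2) CPM, 136 (92.6 to 194) CPM and 266 (243 to 290) CPM. The level in B-like cells was 4.06% to 7.09% of that of all cells of the same library, and the level in T-like cells 3.67% to 8.27%, so it was higher in libraries with more Mt1. How much of it was free RNA was not tested. AS held 13 B-like and 10 T-like cells, with 12 and 7 Mt1 UMIs. For the B-like cells this was 482 CPM. B cells were also taken by B cell receptor contig among B-like cells and cells without a gate. They then had more Mt1 in the first library and MTZ-preventive, at 68.6 and 1035 CPM, and 92.4 CPM in MTZ-treated. With contig barcodes of any class, Mt1 was 92.4 CPM in the first library, 224 CPM in MTZ-treated and 1683 CPM in MTZ-preventive.

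Markers of other cell types also differed between libraries within these classes. The summed level of the 10 adipocyte markers in fibroblast-like cells was 36.7 CPM in the library labelled Healthy, 241 CPM in AS, 53.5 CPM in MTZ-treated and 174 CPM in MTZ-preventive, which is 0.496% to 2.45% of their level in adipocyte-like cells. In smooth muscle-like cells it was 135, 794, 94.3 and 350 CPM, and in endothelial-like cells 80.2, 407, 60.3 and 247 CPM. Adipoq, which defines fat cells, had UMIs in each of these classes in all libraries, and Lep was at 0 in them except in fibroblast-like and smooth muscle-like cells of MTZ-preventive. Of the 10 markers, 6 to 10 had a UMI.

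The 10 neutrophil markers differed more. Their summed level was 4.48, 333, 10.1 and 28.1 CPM in fibroblast-like cells, 4.81, 685, 4.34 and 27.5 CPM in smooth muscle-like cells and 15.8, 245, 16.8 and 27.2 CPM in endothelial-like cells, in the same order of libraries. In AS 5, 10 and 9 of the 10 had a UMI in these classes, and Cxcr2, Mmp9, Clec4d, Trem1 and Stfa2l1 were at 0 in fibroblast-like cells. Macrophage markers in smooth muscle-like cells of AS summed to 226 CPM, against 32.1 to 43.7 CPM in the other libraries. The classes' own markers were lower in AS than in the library labelled Healthy, at 17362 against 40354 CPM for fibroblast-like and 29604 against 57283 CPM for smooth muscle-like cells, while those of endothelial-like cells were at 6395 and 6638 CPM. The part of these differences in the Mt1 levels was not tested.

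If adipocyte RNA carried Mt1 in proportion to these markers, it would bring 619 CPM to fibroblast-like, 2036 CPM to smooth muscle-like and 1043 CPM to endothelial-like cells of AS, where 12461, 10964.5 and 5555 CPM were found. In the library labelled Healthy, scaled to fat cells of MTZ-preventive since its own were too few, it would bring 131 CPM, 480 CPM and 285 CPM, where 1461, 830 and 419 CPM were found. With these amounts subtracted, an alternative chosen after seeing the data, the log2 ratio of AS over that library was 3.15 in fibroblast-like, 4.67 in smooth muscle-like and 5.07 in endothelial-like cells, against 3.09, 3.72 and 3.73 without. This scaling gave more Mt1 than was found in lymphocytes of the library labelled Healthy, 84.8 CPM for B-like and 37.6 CPM for T-like cells against 23.0 and 21.9 CPM, and its own 6 fat cells had 7145 CPM, so too much may be subtracted there and the higher ratios are not read as a result. Only adipocyte RNA was counted, and RNA of other cells was not. The same 10 markers also set the gates. These leave cells with many adipocyte markers out of the 3 classes and pick adipocyte-like cells by them. The amounts can therefore also be too low, and the share of adipocyte RNA in the AS levels cannot be read from them. In AS, 25 barcodes with a B cell receptor contig that were B-like or without a gate had 3493 CPM of Mt1. The 13 B-like cells of AS had 482 CPM. How much of the AS levels was free RNA was not tested.

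The ratios between libraries followed from these levels. Over all cells AS to the library labelled Healthy was 20.3-fold (19.9 to 20.7) for Mt1, 15.8-fold (15.1 to 16.6) for Mt2 and 9.62-fold (7.87 to 11.8) for Slc39a14. MTZ-treated was lower than AS by 6.98-fold (6.87 to 7.09), 5.21-fold (5.00 to 5.42) and 5.69-fold (4.63 to 6.99). MTZ-preventive was lower than AS by 1.59-fold (1.57 to 1.61), 1.38-fold (1.35 to 1.43) and 1.90-fold (1.64 to 2.20). Gated classes of at least 20 cells in both libraries were also given equal weight in place of the sum over cells. The log2 ratio of Mt1 was then 3.22 in place of 4.34 for AS over the library labelled Healthy. For MTZ-treated to AS it was −2.28 in place of −2.80, and for MTZ-preventive to AS −0.35 in place of −0.67. The classes were fibroblast-like, smooth muscle-like and endothelial-like cells in each comparison. Macrophage-like cells entered AS over the library labelled Healthy and MTZ-treated to AS, and adipocyte-like cells only MTZ-preventive to AS. All 3 comparisons share the AS library and are not independent of each other.

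Of the 6 genes, 5 passed the filter of a mean of 10 CPM over the libraries in all cells and in each of the 3 large classes, Slc39a8 being the one that did not. Genes were counted as past the fold where a ratio was at least 2, or at most 1 in 2. Over all cells 3 of 5 members were higher in AS than in the library labelled Healthy, against 9.22% of 8669 genes, 3 of 5 were lower in MTZ-treated than in AS, against 4.71%, and 0 of 5 were lower in MTZ-preventive than in AS, against 2.17%. Mt1, Mt2 and Slc39a14 were the 3 genes in both counts. The median log2 ratio of the 5 members was 3.27, −2.38 and −0.47 in the 3 comparisons, against −0.02, 0.06 and 0.09 over all genes tested. As the members were chosen on these contrasts, nothing is read from the counts.

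In endothelial-like cells 3 of 5 members were higher in AS than in the library labelled Healthy (all genes 4.52%), 3 were lower in MTZ-treated than in AS (all genes 6.97%) and 3 were lower in MTZ-preventive than in AS (all genes 2.84%). In fibroblast-like cells the counts were 3 (all genes 4.39%), 4 (all genes 5.97%) and 0 (all genes 2.77%). In smooth muscle-like cells they were 3 (all genes 7.07%), 3 (all genes 7.56%) and 3 (all genes 4.25%). Mt1, Mt2 and Slc39a14 made up each count of 3, and Slc30a1 was the 4th gene in fibroblast-like cells, at a log2 ratio of −1.37 (−2.61 to 0.03) from 20 and 8 UMIs. In endothelial-like cells Slc30a1 was also past the fold in the other direction, higher in MTZ-preventive than in AS by 2.38-fold, at a log2 ratio of 1.25 (−0.04 to 2.92) from 71 and 5 UMIs.

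MTZ-preventive stood apart from AS by different amounts in different classes. The log2 ratio of Mt1 was −1.48 (−1.53 to −1.44) in smooth muscle-like cells, −1.03 (−1.10 to −0.97) in endothelial-like cells, −0.36 (−0.39 to −0.32) in fibroblast-like cells and 0.06 (0.03 to 0.09) in adipocyte-like cells. These intervals did not overlap, and the level in smooth muscle-like cells was 2.80-fold lower than in AS while that in fat cells was 1.04-fold higher. The order of the first 3 classes was kept under other gates, limits on cells, scalings and means, with −1.51 to −1.14 in smooth muscle-like and −0.49 to −0.24 in fibroblast-like cells. Over every alternative run, the range was −1.74 to −1.14 in smooth muscle-like and −1.29 to −0.94 in endothelial-like cells, and these ranges overlapped. Slc39a14 was ordered likewise, at −1.33 (−1.96 to −0.65), −1.30 (−1.88 to −0.70), −0.78 (−1.25 to −0.26) and 0.05 (−0.51 to 0.65). Its intervals in the first 3 classes overlapped, and that of adipocyte-like cells overlapped only that of fibroblast-like cells. For MTZ-treated against AS, Mt1 had log2 ratios of −2.77 in endothelial-like, −2.65 in smooth muscle-like and −2.42 in fibroblast-like cells, and −0.67 (−0.88 to −0.45) in macrophage-like cells.

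**Figure D2:**
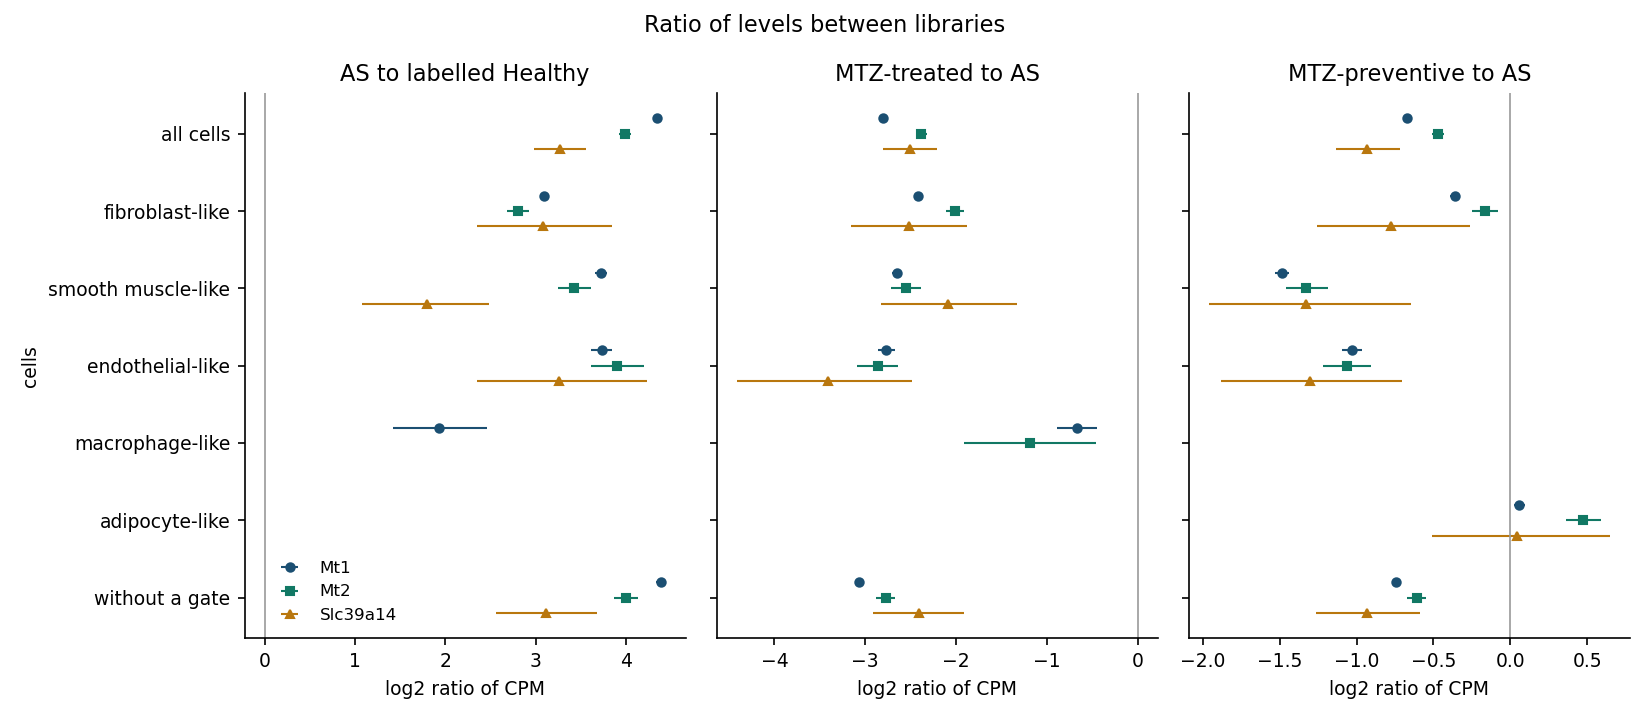
Log2 ratios of CPM for Mt1, Mt2 and Slc39a14 in the 3 comparisons, over all cells and by class, with bars for 95% limits of counting error and a gray line at 0. Ratios of AS over the library labelled Healthy lie right of the line and those of MTZ-treated to AS left of it, while MTZ-preventive to AS runs from −1.48 for Mt1 in smooth muscle-like cells to 0.06 in adipocyte-like cells.

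The zinc importer Slc39a14 was highest in AS in stromal and endothelial classes. In the library labelled Healthy it was highest in smooth muscle-like cells, at 17.5 (13.6 to 22.1) CPM, against 8.18 (4.58 to 13.5) CPM in endothelial-like and 8.07 (5.32 to 11.7) CPM in fibroblast-like cells. In AS it had 96.1 (64.8 to 137) CPM in adipocyte-like, 78.0 (54.6 to 108) CPM in endothelial-like, 68.2 (49.0 to 92.6) CPM in fibroblast-like and 60.7 (39.3 to 89.7) CPM in smooth muscle-like cells, and no neighbors in this order were apart. In MTZ-preventive adipocyte-like cells, at 99.2 (86.5 to 113) CPM, were apart from fibroblast-like cells, at 39.9 (35.2 to 45.0) CPM. After each cell was thinned to 1000 UMIs, it was found in 7.5% of fibroblast-like cells of AS and in 0.459% of those of the library labelled Healthy, whose B-like cells had 0.175%. Median depths were 1265.5, 1526.5 and 1953 UMIs, and the intervals of the last pair of shares overlapped, although the CPM of fibroblast-like cells lay above the 1.88 (0.937 to 3.36) CPM of B-like cells.

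Slc30a1, Mtf1 and Slc39a8 showed other patterns over the classes. Slc30a1 had its highest level in T-like cells in the 3 libraries that held enough of them, with 32.5 (27.9 to 37.7) CPM for the library labelled Healthy, 48.4 (24.1 to 86.5) CPM for MTZ-treated and 45.5 (36.4 to 56.1) CPM in MTZ-preventive. Fibroblast-like cells had 11.1, 13.3, 5.17 and 12.7 CPM in the 4 libraries, in the order used above. Intervals of T-like cells overlapped those of Schwann-like, endothelial-like and macrophage-like cells in the first library. In MTZ-treated, where T-like cells had 11 UMIs, they overlapped those of macrophage-like and B-like cells. In MTZ-preventive they overlapped those of adipocyte-like and Schwann-like cells. T-like cells were among the classes with the least Mt1. Mtf1 in endothelial-like cells of the library labelled Healthy had 26.7 (19.8 to 35.3) CPM and 27.3 (20.4 to 35.7) CPM in those of MTZ-treated, apart from fibroblast-like cells at 8.07 (5.32 to 11.7) and 10.6 (7.60 to 14.4) CPM. Slc39a8 was at 4.70 CPM or less in fibroblast-like, smooth muscle-like, endothelial-like, B-like and T-like cells of each library with at least 20 such cells.

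**Figure D3:**
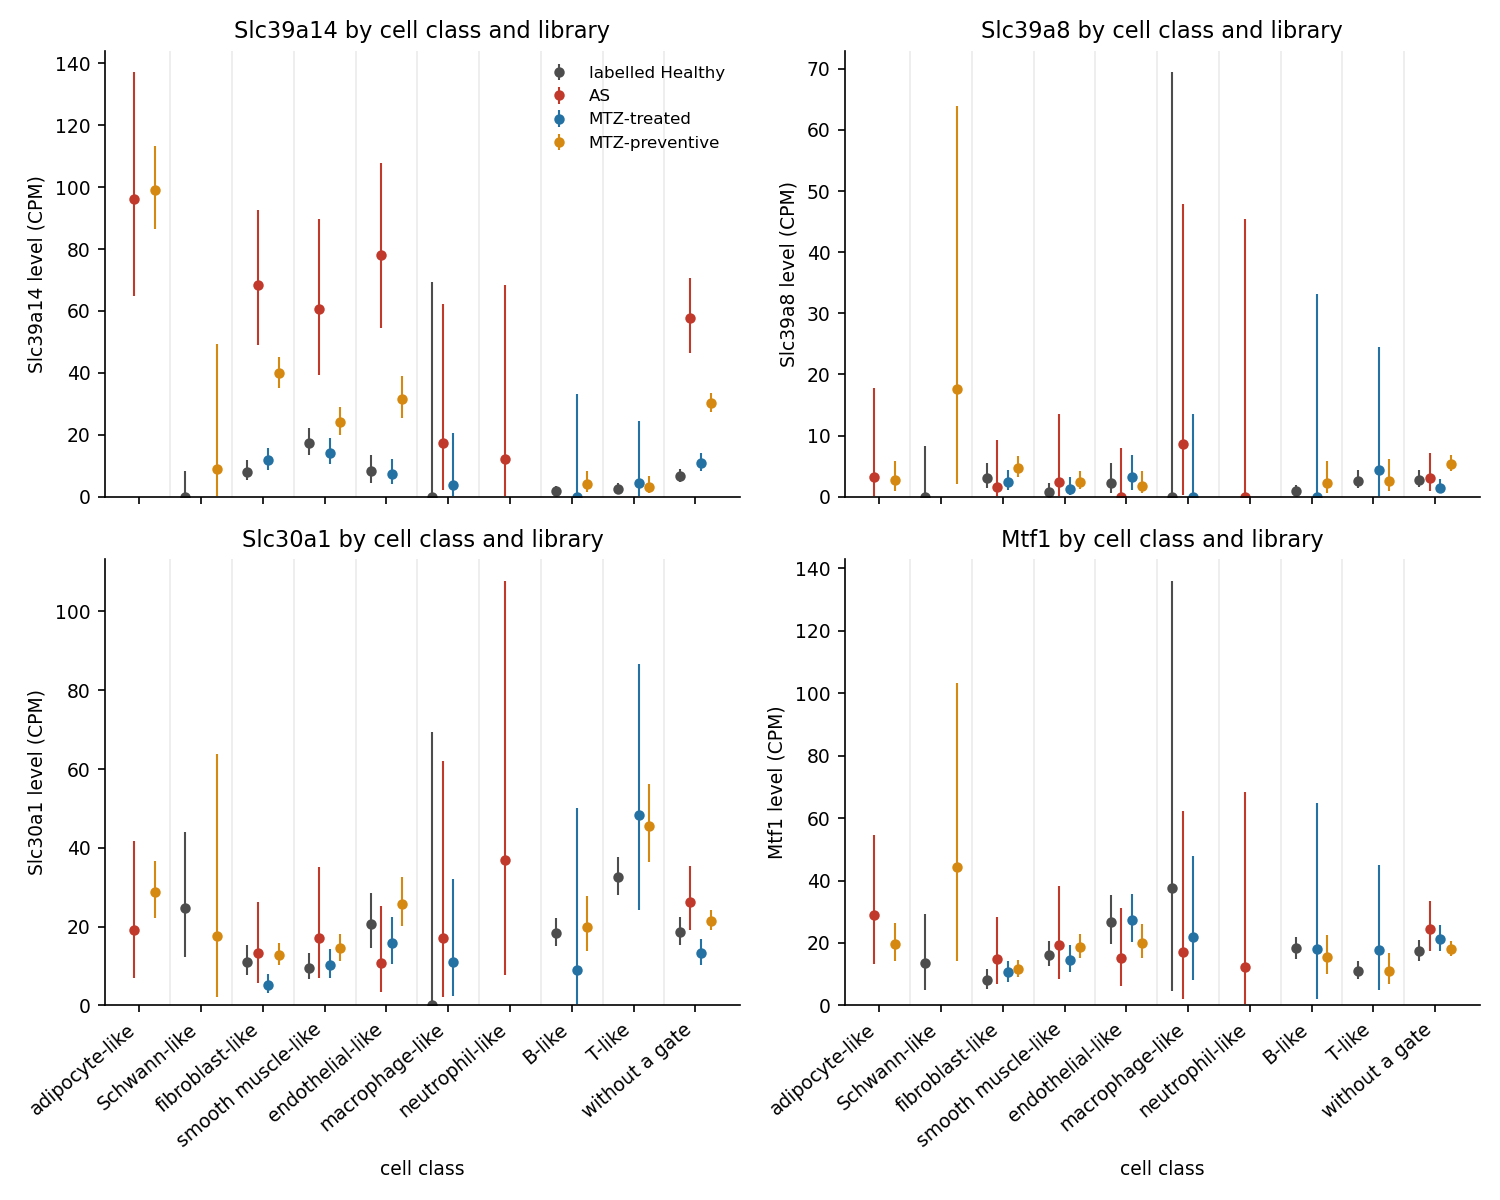
Levels of Slc39a14, Slc39a8, Slc30a1 and Mtf1 in CPM on linear axes, for each cell class with at least 20 cells and each library, with bars for 95% Poisson limits. Slc39a14 is higher in AS than in the other libraries in stromal and endothelial classes, and bars of the other 3 genes overlap in most classes.

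Mt1 and Mt2 were next compared within each class by their ratio of UMIs, which does not depend on depth. With Mt2 as 1, Mt1 had 4.89 (4.57 to 5.24) UMIs in fibroblast-like cells of the library labelled Healthy, 5.97 (5.62 to 6.34) in AS, 4.5 (4.29 to 4.72) in MTZ-treated and 5.22 (5.12 to 5.32) in MTZ-preventive. In smooth muscle-like cells the ratio was 6.98 (6.34 to 7.71), 8.60 (7.85 to 9.43), 8.03 (7.42 to 8.69) and 7.71 (7.40 to 8.03). In endothelial-like cells it was 6.30, 5.59, 5.97 and 5.71, with intervals that overlapped. The ratio was higher in smooth muscle-like than in fibroblast-like cells in all 4 libraries, with intervals apart, and it varied far less between libraries than the 8.53-fold difference of Mt1 between AS and the library labelled Healthy in fibroblast-like cells.

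Adipocyte-like cells had 11.8 (10.9 to 12.8) Mt1 UMIs per Mt2 UMI in AS and 8.82 (8.60 to 9.04) in MTZ-preventive. Mt2 in fat cells was 1.39-fold (1.29 to 1.51) higher in MTZ-preventive than in AS, and Mt1 1.04-fold (1.02 to 1.07) higher. Schwann-like cells had 7.70 (6.86 to 8.66) and 7.85 (6.38 to 9.75) in the library labelled Healthy and MTZ-preventive. B-like cells of MTZ-preventive had 9.60 (7.35 to 12.7) and T-like cells 6.51 (5.12 to 8.38). Ratios of fibroblast-like and adipocyte-like cells of the same library did not overlap, so the ratio differed between classes.

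**Figure D4:**
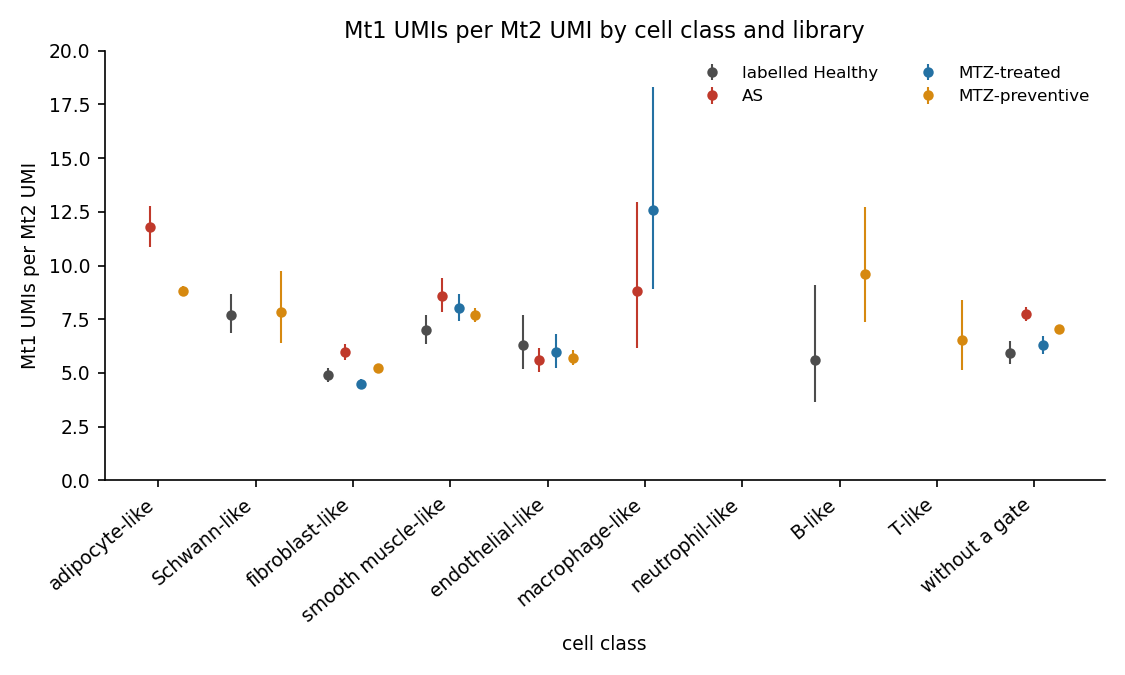
Mt1 UMIs per Mt2 UMI on a linear axis from 0, by cell class and library, with bars for 95% binomial limits, for classes with at least 20 Mt2 UMIs. Fibroblast-like cells lie at 4.5 to 5.97, smooth muscle-like cells at 6.98 to 8.60, and adipocyte-like cells of AS at 11.8.

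Among single cells, libraries with a higher level had both more cells with Mt1 and more UMIs per cell. After thinning to 1000 UMIs, 54.5% of fibroblast-like cells of the library labelled Healthy had an Mt1 UMI, 94.3% of those of AS, 73.4% of MTZ-treated and 89.3% of MTZ-preventive. For smooth muscle-like cells the shares were 38.7%, 90%, 60.9% and 78.8%, and for endothelial-like cells 22.4%, 79.6%, 35.9% and 60.5%. B-like cells had shares of 1.75% (1.30% to 2.30%) in the library labelled Healthy, 3.33% in MTZ-treated and 25.3% (22.5% to 28.4%) in MTZ-preventive. Their gate leaves out B cells with many markers of other classes, so these shares can be too low for a background. In MTZ-preventive, B cells taken by receptor contig had 1035 CPM of Mt1, against 329 CPM in B-like cells. At unthinned median depths of 1953, 1467 and 1682 UMIs in B-like cells and 1526.5, 1790 and 1729 UMIs in fibroblast-like cells, each share of fibroblast-like, smooth muscle-like and endothelial-like cells in these 3 libraries lay above that of B-like cells. AS, with 13 B-like cells, has no such share, so its shares of cells with a UMI stand without one. Its 25 barcodes with a B cell receptor contig that were B-like or without a gate had 3493 CPM of Mt1. The 13 B-like cells had 482 CPM.

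The median fibroblast-like cell held 6 Mt1 UMIs per 1000 in AS and 5 in MTZ-preventive, against 1 in the library labelled Healthy and 2 in MTZ-treated. The median smooth muscle-like cell held 9 and 3, against 0 and 1, and the median adipocyte-like cell 20 in AS and 19 in MTZ-preventive. The tenth of fibroblast-like cells with most Mt1 held 41.9% to 46.3% of its UMIs in each library. The highest counts in a fibroblast-like cell were 18, 89, 49 and 112 UMIs per 1000.

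**Figure D5:**
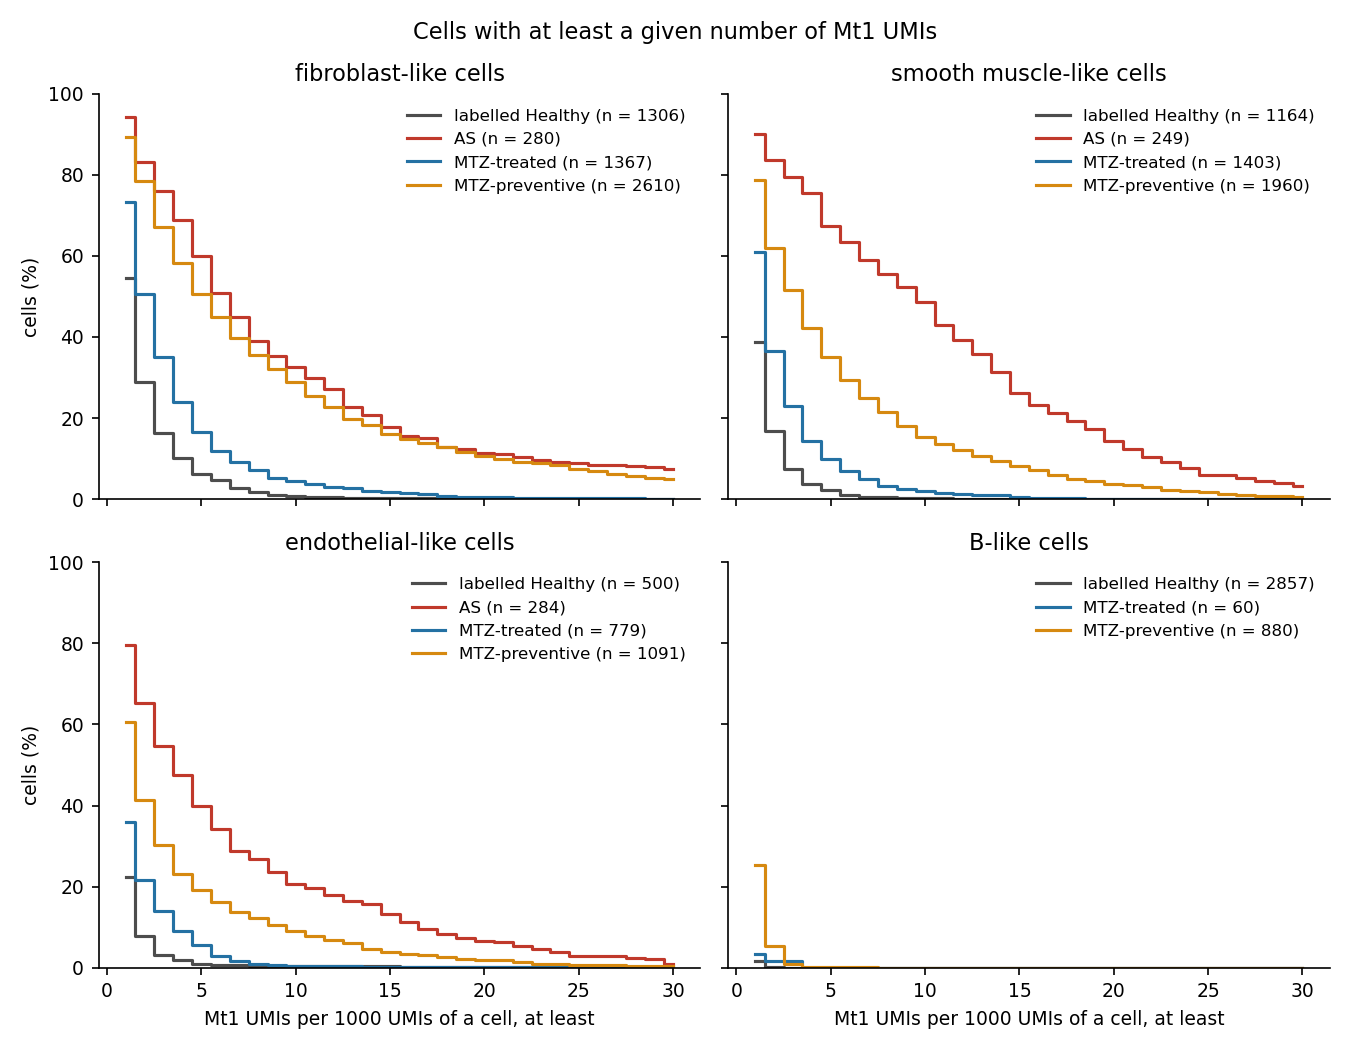
Percent of cells (vertical axis) with at least a given number of Mt1 UMIs among 1000 UMIs (horizontal axis), for fibroblast-like, smooth muscle-like, endothelial-like and B-like cells of each library with at least 20 cells. The AS curve is highest in the first 3 panels over the range of counts drawn, and the B-like curves start at 1.75% to 25.3% of cells.

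In these classes Mt2 was found more often in cells that also had Mt1. In fibroblast-like cells 26.8% of cells with an Mt1 UMI had an Mt2 UMI in the library labelled Healthy and 10.8% of cells without, and in AS 64.0% and 18.8%. In smooth muscle-like cells of AS the shares were 63.4% and 8%, and in endothelial-like cells of AS 50% and 10.3%. The Pearson correlation of log counts over the thinned cells of a class, given as a description, was 0.38 to 0.64 in fibroblast-like, 0.25 to 0.55 in smooth muscle-like and 0.31 to 0.63 in endothelial-like cells over the 4 libraries. Cells of 1 library share their source and are no replicates.

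Of 23 other genes of zinc handling, zinc transporters of both families and the metallothioneins Mt3 and Mt4, 11 passed the filter over all cells. None of these was higher by the fold in AS than in the library labelled Healthy (all genes 9.22%). Lower by the fold was 1, Mt3, the metallothionein known from the nervous system, as were 936 of 8669 genes tested. Mt3 had 34.9 CPM in the library labelled Healthy, 2.73 CPM in AS, 48.4 CPM in MTZ-treated and 64.7 CPM in MTZ-preventive, and its level in Schwann-like cells was 1141 CPM in the library labelled Healthy and 672 CPM in MTZ-preventive. AS held 2 Schwann-like cells, 0.0926% of its cells, against 1.47%, 0.25% and 0.486% of the other libraries. Cells without a gate held 564 of 716 Mt3 UMIs in MTZ-treated and 1719 of 2117 in MTZ-preventive. In these cells Mt3 had 44.8, 3.68, 111 and 141 CPM in the 4 libraries, the AS value from 6 UMIs. The part of makeup in the Mt3 levels was not tested. Slc39a7, which moves zinc out of the endoplasmic reticulum, had 61.5, 60.8, 56.5 and 61.0 CPM, and the importer Slc39a1 34.0, 54.2, 47.3 and 43.6 CPM. The median log2 ratio of the 11 genes was 0.12, −0.09 and 0.01 in the 3 comparisons.

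Lists of genes known to answer to signals that also act on metallothioneins or Slc39a14 were read beside the members. Of 12 acute phase genes, all of which passed the filter, 10 were higher by the fold in AS than in the library labelled Healthy (all genes 9.22%), 6 were lower in MTZ-treated than in AS (all genes 4.71%) and 3 lower in MTZ-preventive than in AS (all genes 2.17%). In that last comparison 1 was higher, as were 509 of 8669 genes tested. These are sums over all cells, which move with the makeup of the library. Within classes 5 of 11 acute phase genes were higher in AS in fibroblast-like, 6 of 10 in endothelial-like and 8 of 11 in smooth muscle-like cells, and 5, 3 and 8 were lower in MTZ-treated. Of all genes in these classes 4.39%, 4.52% and 7.07% were higher in AS. The shares lower in MTZ-treated were 5.97%, 6.97% and 7.56%. Haptoglobin (Hp), an acute phase gene also known from fat cells, had 12 CPM, 3006 CPM, 65.5 CPM and 2832 CPM, and Cebpb and Socs3 had log2 ratios of AS against the library labelled Healthy of 1.25 and 0.71. In smooth muscle-like cells Hp had 0.253 CPM in the library labelled Healthy and 1472 CPM in AS, whose adipocyte-like cells had 12028 CPM. The part of RNA from other cells in the counts within classes, here and for the lists below, was not tested. All these lists were chosen with earlier results of these data known. Of 7 oxidative stress genes that passed over all cells 6 were higher in AS (all genes 9.22%) and 4 lower in MTZ-treated (all genes 4.71%). In MTZ-preventive 0 were lower than in AS (all genes 2.17%). Within classes 2 of 6 were higher in AS in fibroblast-like, 1 of 7 in endothelial-like and 5 of 7 in smooth muscle-like cells, and 2, 2 and 5 were lower in MTZ-treated. The shares of all genes are those given above for these classes. The list holds the heme oxygenase gene Hmox1, at 25.2, 312, 72.7 and 321 CPM, Gclc at 57.0, 123, 47.6 and 124 CPM and Txnrd1 at 29.8, 98.1, 51.7 and 105 CPM.

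Of 8 glucocorticoid response genes 3 were higher in AS (all genes 9.22%), 3 lower in MTZ-treated (all genes 4.71%) and 0 lower in MTZ-preventive (all genes 2.17%) over all cells. In fibroblast-like, endothelial-like and smooth muscle-like cells 1, 2 and 3 were higher in AS (all genes 4.39%, 4.52% and 7.07%). Tsc22d3 had 244, 135, 117 and 230 CPM, and the log2 ratios of AS against the library labelled Healthy were 0.58 for Sgk1 and 0.82 for Klf9. Of 7 iron genes that passed over all cells 2 were higher in AS, 1 lower in MTZ-treated and 0 lower in MTZ-preventive, against the same shares of all genes. In these classes 1, 0 and 4 of 5 were higher in AS (all genes 4.39%, 4.52% and 7.07%). The ferritin genes Fth1 and Ftl1 had ratios of 1.15 and 0.58 on the log2 scale. Hmox1 is on the iron list as well as the oxidative stress list, so the counts of these lists share it. Of 10 genes known as a response to tissue dissociation 0 were higher in AS by the fold (all genes 9.22%) and 3 were lower, as were 936 of 8669 genes tested. Fos had 3081, 3108, 3391 and 4075 CPM, Jun 1425, 1739, 1456 and 1886 CPM and Junb 4448, 2040, 1961 and 3791 CPM.

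Across 23 pairs of class and library with at least 50 cells, the genes of 8731 whose log2(CPM + 10) was most like that of Mt1 were Mt2, with a Pearson r of 0.987, Cxcl1 (0.914), Gpx4 (0.914), Bnip3 (0.901) and Malsu1 (0.895). Slc39a14 ranked 157 with 0.774, Mtf1 3932 with 0.218 and Slc30a1 6216 with −0.259. The genes most like Slc39a14 were Cfd (0.906), Vegfa (0.903), Asns (0.902), Hp (0.892) and Cidec (0.889), of which Cidec was used to gate adipocyte-like cells. Pairs of the same library share its depth and free RNA, so the correlations are a description over points that are not independent.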

How the data were processed

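Raw counts of unique molecular identifiers (UMIs), made by the authors in Cell Ranger 5.0.0 per the file headers, were used as deposited. The submitters' processing notes also name STAR and mm10. From 4 gene expression matrices, barcodes were kept by the study's limits, namely more than 200 genes and 1000 UMIs, log10 genes over 0.7 times log10 UMIs, mitochondrial UMIs below 10% and red blood cell genes below 5%. Doublets were called per library from 2 simulated doublets per cell, and the top 0.8% per 1000 cells, 39 to 2130 cells, were removed. Near the gates' limits lay 114 to 918 gated cells with just 3 markers and 154 to 1054 ungated cells with 2, and 908 to 4867 cells had 3 or more markers of 1 class but too many of another. The leading 10 genes of each class held at least 2 of its own markers and 0 of another class.

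UMIs were summed over cells to CPM, with exact Poisson limits, conditional binomial limits for ratios and Clopper-Pearson limits for shares. Counts of 38 symbols on more than 1 line were summed. With 1 library per group no test was made. The receptor files were used to take B and T cells by productive contig, among cells of that class and cells without a gate, as an alternative. Members, lists and markers were chosen with earlier results of these data known. Genes were named by fixed rules, the 6 members, Apoe, the 3 genes with the highest mean CPM of each list and the 5 genes most like Mt1 and Slc39a14. Alternatives were other cell limits, gates of 2 and 4 markers, doublets kept, TMM factors, another total, a mean over cells, other weights of classes and subtraction of the lowest class level or of adipocyte RNA. Steps were tested on simulated data. Software was edgeR 4.0.16 (TMM factors only) in R 4.3.3, and scikit-learn 1.9.0, matplotlib 3.10.9, pandas 2.3.3, scipy 1.17.1 and numpy 2.4.6 in Python 3.11.15.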

Additional observations from a re-analysis of the deposited data

Results flagged for a closer look

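Barcodes with 1000 UMIs or fewer carried Mt1 in the order of the libraries found in kept cells. They enter only the alternatives with looser limits on cells or all deposited barcodes. Their level was 8811 CPM in AS, 1560 CPM in MTZ-treated and 5034 CPM in MTZ-preventive, above the 579 CPM of the library labelled Healthy, in 4507, 13688, 6979 and 9323 barcodes. The 6 adipocyte-like cells of the library labelled Healthy, too few for a class value, had 7145 CPM of Mt1 in 203 UMIs.

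Slc39a8, sparse elsewhere, was high in mesothelial-like cells, which line the body cavities and were below the minimum of 20 cells. It had 628 (204 to 1466) CPM in 6 such cells of AS, from 5 UMIs, and 371 (203 to 622) CPM in 18 cells of MTZ-preventive, from 14 UMIs. The 4 mesothelial-like cells of MTZ-treated had 0 UMIs, which allows up to 114 CPM (3 counts).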

How the results depend on the processing

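The log2 ratio of Mt1 over all cells kept its direction in all 3 comparisons under every alternative run. For AS to the library labelled Healthy, MTZ-treated to AS and MTZ-preventive to AS in this order (4.34, −2.80 and −0.67 as reported), it was 4.18, −2.76 and −0.63 with looser limits on cells, 4.18, −2.77 and −0.63 with all deposited barcodes, 4.32, −2.89 and −0.69 with TMM factors, 4.18, −2.77 and −0.58 with a total without mitochondrial, ribosomal protein and hemoglobin genes, 4.38, −2.65 and −0.77 as a mean over cells, 3.22, −2.28 and −0.35 with equal weight for each class, and 4.15, −2.66 and −0.47 with the lowest class level subtracted. Equal weight was given only to classes with at least 20 cells in both libraries, which were not the same in every comparison. With doublets kept the log2 ratio was −2.84 for MTZ-treated and −0.76 for MTZ-preventive, and with classes weighted as in the library labelled Healthy 3.83 for AS and −0.75 for MTZ-preventive.

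Some ratios near 1 took either sign, namely Mtf1 for AS to the library labelled Healthy (−0.41 to 0.60) and MTZ-treated to AS (−0.33 to 0.16), Slc30a1 for AS to the library labelled Healthy (−0.10 to 0.50) and MTZ-preventive to AS (−0.25 to 0.44), and Mt2 for MTZ-preventive to AS in fibroblast-like cells (−0.27 to 0.03). Barcodes were also taken by B cell receptor contig among B-like cells and cells without a gate. Mt1 was then 68.6, 3493, 92.4 and 1035 CPM in the 4 libraries, the AS value from 25 barcodes, against 482 CPM in B-like cells of AS. With contig barcodes of any class it was 92.4, 5933, 224 and 1683 CPM, the AS value from 33 barcodes. The cause of these changes was not tested. Depth limits Slc39a8, Slc30a1 and Mtf1 in AS, which had 14, 74 and 77 UMIs over all cells. No paired analysis was possible because each group has 1 library.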
